A study of Mus musculus with 2 samples.

Results

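The genes of glycolysis, of the pentose phosphate pathway and of the response to hypoxia-inducible factor (HIF) were compared between T helper 2 (Th2) cells of Ecm1 knockout mice and of wild-type mice. The set was a list of 39 genes: 24 of glucose uptake, glycolysis and lactate transport, 11 of the hypoxia response and 4 of the pentose phosphate pathway. It was chosen with earlier results of these data known, so its counts beside all genes are descriptive only. A gene was read from probe sets that the platform annotation gives to that gene alone, with the brightest such probe set standing for the gene. Read this way, 34 of the 39 were measured among 18193 named genes. Gapdh was read only by 3 control probe sets and is given apart, and Gpi1, Eno1, G6pdx and Bnip3l were not named by a probe set with 1 symbol and were not analysed here.

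Each group had 1 Affymetrix array, 1 hybridised with RNA of cells lacking Ecm1, which encodes a secreted matrix glycoprotein, and 1 with RNA of wild-type cells. The labels describe all mice as female C57BL/6, 6 weeks old, and the sources used here do not describe the deleted part of Ecm1. On both arrays the CD4 cells came from spleen by magnetic selection and spent 4 days on plate-bound anti-CD3 at 3 µg/ml. The medium held anti-CD28 at 2 µg/ml, antibodies to IL-12 and IFN-γ at 10 µg/ml each, and IL-4, at 10 ng/ml by the likeliest reading of the label. The number of animals pooled for an array, if any were, is likewise unknown. With 1 array a group there is no test, SD or p-value between groups, and every difference below describes these 2 arrays.

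Activated T cells take up glucose and break it down to pyruvate and lactate even when oxygen is present, and the intermediates feed the synthesis of nucleotides and lipids. The pentose phosphate pathway branches off after glucose has been phosphorylated and yields NADPH and ribose. HIF-1 is a transcription factor whose α subunit, made from Hif1a, is hydroxylated by the Egln enzymes and then degraded when oxygen is plentiful. When it is stable, in hypoxia or after T cell receptor stimulation, it raises glucose transporters, many glycolytic enzymes, and genes such as Pdk1, Egln3, Ankrd37 and Ndrg1.

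As a set, these transcripts were lower on the knockout array, and the size of the difference varied widely from gene to gene. Differences are log2 values, knockout minus wild type, centred on the median of all probe sets above the floor, where the floor is an array's median signal (65.5 in the knockout, 69.2 in wild type). Of the 34 measured members 30 were below 0 and 4 above, with a median of -0.41, while 46.9% of all 10144 measured genes were below 0 and their median was 0.04. At least 2-fold lower were 6 members (17.6%), Slc2a3, Eno2, Ndrg1, Aldoc, Ankrd37 and Pfkfb3, beside 4.45% of all genes. None was at least 2-fold higher, beside 7.15% of all genes. At a threshold of 1.5-fold, 12 members were lower (35.3%), beside 13.6% of all genes, and 1, Taldo1, was higher, beside 18.3% of all genes. Without centring, which removed a shift of -0.10, 8 members and 611 of all genes were at least 2-fold lower, and 587 of all genes were at least 2-fold higher. The only internal measure of error is how far probe sets of 1 gene differ, an SD of 0.36 on a log2 difference over 4657 genes, which leaves out animals, cultures and arrays.

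**Figure D1:**
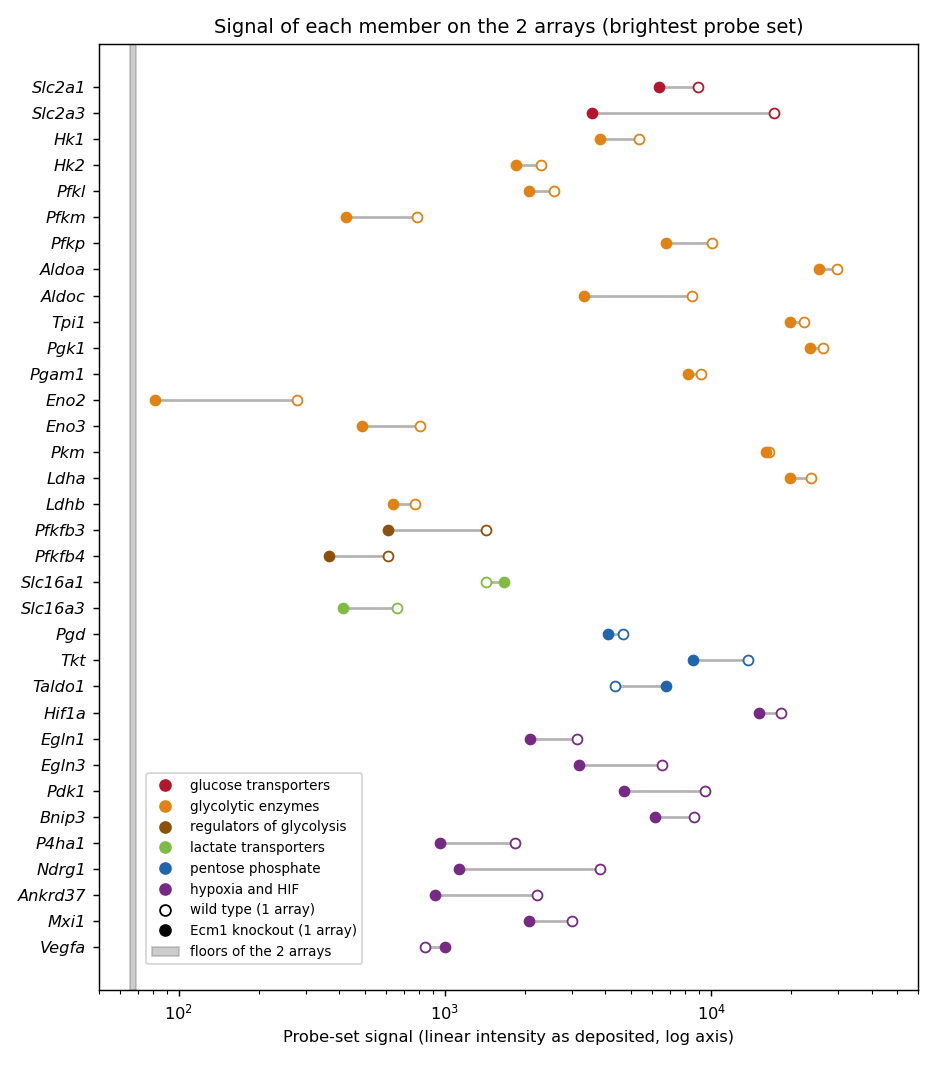
Signal of the brightest probe set of each of the 34 measured members (linear intensity on a log axis) on the wild-type array (open circles) and the knockout array (filled circles), coloured by role, with the floors of the arrays as a grey band. Slc2a3 spans the widest gap, from 17184.7 to 3559.6, and Slc16a1, Taldo1 and Vegfa are the members whose filled circle lies to the right.

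The glucose transporters showed the widest contrast within a family. Slc2a3 encodes GLUT3, the high-affinity transporter of neurons and lymphocytes. It read 17184.7 in wild type and 3559.6 in the knockout, 20.7% of the wild-type signal, a difference of -2.17 that ranked 22 from the lowest of 10144 genes. Its other probe set above the floor on both arrays was lower still, at -2.80. Another read 86.2 in wild type and 5.0, below the floor, in the knockout, and the last stayed under both floors. The probe sets behind the values of -2.17 and -2.80 carry the suffixes _s_at and _x_at, which mark probes that can match other transcripts, and without such probe sets Slc2a3 had no value. Slc2a1 encodes GLUT1, the main transporter induced by T cell activation. It read 8918.9 and 6352.3, a difference of -0.39, with its other probe sets at -0.50 and -0.57. The values of the transporters lay 1.78 apart, and the ranges of their probe sets did not overlap.

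The enzymes of the core pathway had a median of -0.20 over 15 measured genes, of which 14 were below 0. At least 1.5-fold lower were 4 of the 15 (13.6% of all genes were), Pfkm, Eno3, Aldoc and Eno2, and the last 2 were at least 2-fold lower (4.45% of all genes). The hexokinases, which trap glucose as its phosphate, were at -0.38 for Hk1 (5357.6 in wild type, 3824.1 in the knockout) and -0.21 for Hk2 (2293.9 and 1842.9). Phosphofructokinase commits sugar to glycolysis, and its liver, platelet and muscle subunits were at -0.20 (Pfkl), -0.48 (Pfkp) and -0.78 (Pfkm, 781.8 and 423.1). Most of the enzymes that follow differed little. Aldoa, the main aldolase of muscle and most cells, read 29541.4 and 25451.5 (-0.11), Tpi1 22206.7 and 19686.5 (-0.07), Pgk1 26226.7 and 23480.5 (-0.06) and Pgam1 9111.3 and 8171.1 (-0.05). Pyruvate kinase, Pkm, which makes pyruvate, read 16486.3 and 16025.1. Its centred value was 0.06, and it was below 0 without centring (-0.04) and under quantile (-0.13) or loess (-0.05) normalization. Lactate dehydrogenase, which turns pyruvate into lactate, was at -0.16 for Ldha (23602.6 and 19690.1) and -0.18 for Ldhb (771.8 and 635.7). The 3 control probe sets of Gapdh ran from -0.00 to 0.04, the brightest reading 36695.2 in wild type and 34742.0 in the knockout. By their brightest probe sets, all of these enzymes from Aldoa to Gapdh lay within the SD between probe sets. Dimmer probe sets reached past it in Ldhb (-0.47) and Aldoa (-0.37).

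The remaining aldolase and the enolases had larger differences. Aldoc, the aldolase abundant in brain and a known HIF target, read 8489.1 in wild type and 3314.6 in the knockout (-1.25), and its other probe set was at -1.84. It lay 1.14 below Aldoa. Eno2, the neuronal enolase, read 277.6 and 81.5 (-1.67), the knockout signal standing just above the floor of 65.5, and it was below the floor on both arrays when the floor was raised to the 70th percentile. Eno3, the muscle enolase, was at -0.61 (804.0 and 489.8). Both have a single probe set here. The ubiquitous enolase gene, Eno1, was not analysed here.

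**Figure D2:**
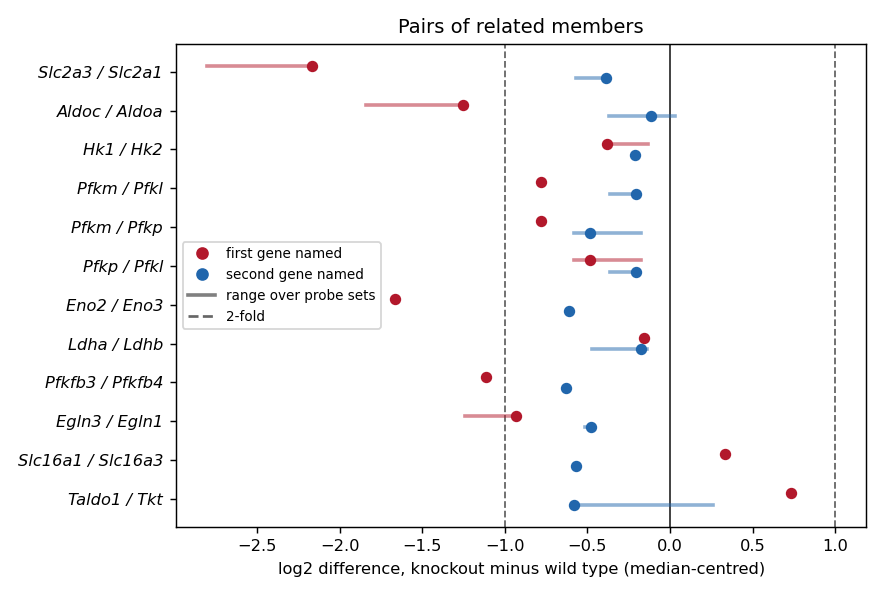
Log2 difference, knockout minus wild type, of 12 pairs of related members (points) with the range over their probe sets above the floor (bars), and dashed lines at 2-fold. By brightest probe set, the widest separations are Slc2a3 from Slc2a1 (1.78 apart), Taldo1 from Tkt (1.32) and Aldoc from Aldoa (1.14), while Ldha and Ldhb almost coincide. That of Taldo1 from Tkt rests on an _x_at probe set of Tkt (-0.58), and its other measured probe set was at 0.26.

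The bifunctional enzymes that set the level of fructose 2,6-bisphosphate, the strongest activator of phosphofructokinase, were lower. Pfkfb3 read 1419.7 in wild type and 610.3 in the knockout (-1.12), and Pfkfb4 612.0 and 367.6 (-0.63). As a mean that takes in a dimmer probe set, below the floor in the knockout, Pfkfb3 was at -0.93 and no longer 2-fold lower. The lactate transporters diverged. Slc16a3 encodes MCT4, the exporter of highly glycolytic cells and a HIF target, and was at -0.57 (662.2 and 415.2). Slc16a1 encodes MCT1 and was higher, at 0.34 (1421.5 and 1670.8). Its other probe set was below the floor on both arrays (5.5 and 26.1), and averaging it in gave 1.34.

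The hypoxia genes had a median of -0.66 over 10 measured genes, of which 9 were below 0, beside -0.38 for all glycolysis members. Hif1a itself differed little, with 18213.7 in wild type and 15121.4 in the knockout (-0.17) and -0.22 in each of its other measured probe sets. The Egln genes encode the oxygen sensors that mark HIF for destruction and are themselves raised by it. Egln3 read 6537.5 and 3187.6, 48.8% of wild type (-0.93, with -1.24 in its other probe set), and Egln1 3121.6 and 2084.1 (-0.48). Pdk1, the kinase that turns off pyruvate dehydrogenase and so keeps pyruvate out of mitochondria, read 9470.0 and 4698.2 (-0.91), with its other 3 probe sets between -1.17 and -1.38. Egln3 and Pdk1 lay just inside 2-fold after centring and were past it without centring (-1.04 and -1.01), under quantile (-1.11 and -1.08) or loess (-1.07 and -1.05) normalization, and as the mean of their probe sets (-1.09 and -1.18).

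Ndrg1, a stress-induced gene strongly raised by hypoxia, had the largest difference of the hypoxia group. It read 3822.6 in wild type and 1129.2 in the knockout, 29.5% of wild type (-1.66). All 5 of its probe sets were lower, 4 of them between -1.45 and -1.73 and a dimmer one at -0.55. Ankrd37, a small ankyrin-repeat gene and HIF target, read 2215.3 and 918.3 in its single probe set (-1.17). P4ha1, a subunit of the enzyme that hydroxylates collagen prolines, was at -0.83 (1833.3 and 958.9), with -0.14 in a dimmer probe set. Bnip3, which takes part in the removal of mitochondria, was at -0.39 (8640.9 and 6129.7). Mxi1, an antagonist of MYC, was at -0.43 (2999.7 and 2075.8), with 0.18 in a dimmer probe set. Vegfa, the vascular growth factor and a classic HIF target, went the other way. It read 844.0 in wild type and 1002.5 in the knockout (0.35), and 1.09 in its other probe set.

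**Figure D3:**
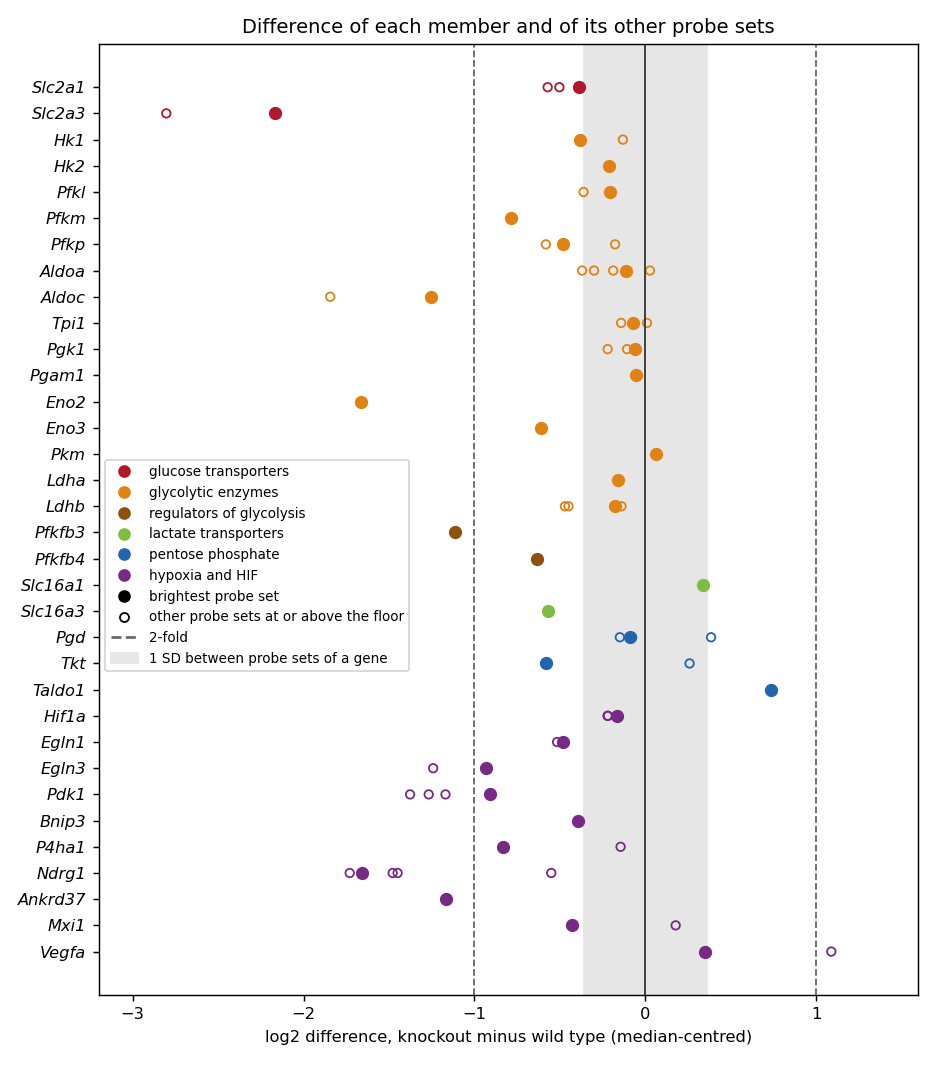
Centred log2 difference, knockout minus wild type, of each measured member (filled, brightest probe set) and of its other probe sets above the floor on both arrays (open), coloured by role, with dashed lines at 2-fold and a grey band of 1 SD (0.36) between probe sets of a gene. Enzymes from Aldoa to Ldhb lie in or near the band except Aldoc, Eno2 and Eno3, while Slc2a3, Eno2, Ndrg1, Aldoc, Ankrd37 and Pfkfb3 lie left of the 2-fold line.

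The members were also divided by a list of direct HIF targets, written without a cited source and with earlier results of these data known. The others include the glycolytic enzymes Hk1 (-0.38), Pfkl (-0.20), Tpi1 (-0.07), Pgam1 (-0.05) and Pkm (0.06). Absence from the list does not show that HIF leaves a gene alone, and HIF raises many glycolytic enzymes. The medians of both parts depend on where such genes are placed, and a role of HIF was not tested. The 19 measured genes on the list had a median of -0.57, with 18 below 0 and 5 at least 2-fold lower (26.3%). The 15 others had a median of -0.18, with 12 below 0 and 1, Eno2, at least 2-fold lower (6.67%). Of all genes 4.45% were at least 2-fold lower. The order of these medians was the same under each of the 8 alternative settings run, the first running from -0.67 to -0.50 and the second from -0.30 to -0.17. These settings reprocess the same 2 arrays with the same list, so the unchanged order does not test the division. The targets were not uniform. Aldoa, Pgk1 and Ldha are on that list and lay between -0.16 and -0.06, and Vegfa was above 0.

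The promoters of the members were read from RefSeq (build GRCm38.p6) to show what the lower genes carry at their start sites. The table gave promoters for 36 of the 39 genes, and Slc2a3, Ndrg1 and Bnip3l had none there. A promoter is the window of 250 bases before and 50 from the start site on. HIF binds the core ACGTG or GCGTG, searched on both strands, and ACGTG also lies inside the E-box CACGTG that MYC and related factors bind. The first listed promoter is printed for each of the other genes at least 2-fold lower, and for Taldo1, the member with the highest difference, for contrast. Capitals mark the cores as they read on the gene's strand, where CACGT and CACGC are the cores of the opposite strand.
Ankrd37: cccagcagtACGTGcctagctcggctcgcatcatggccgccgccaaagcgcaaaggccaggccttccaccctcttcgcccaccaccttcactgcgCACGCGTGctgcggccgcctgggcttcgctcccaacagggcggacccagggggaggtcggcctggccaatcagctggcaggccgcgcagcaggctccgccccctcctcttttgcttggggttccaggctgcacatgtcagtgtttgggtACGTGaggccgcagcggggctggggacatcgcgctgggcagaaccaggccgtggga
Aldoc: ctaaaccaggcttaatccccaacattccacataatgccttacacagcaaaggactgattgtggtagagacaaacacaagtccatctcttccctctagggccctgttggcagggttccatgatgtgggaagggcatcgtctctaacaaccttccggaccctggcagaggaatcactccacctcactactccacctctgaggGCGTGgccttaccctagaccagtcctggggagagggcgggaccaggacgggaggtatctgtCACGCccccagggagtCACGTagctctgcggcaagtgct
Pfkfb3: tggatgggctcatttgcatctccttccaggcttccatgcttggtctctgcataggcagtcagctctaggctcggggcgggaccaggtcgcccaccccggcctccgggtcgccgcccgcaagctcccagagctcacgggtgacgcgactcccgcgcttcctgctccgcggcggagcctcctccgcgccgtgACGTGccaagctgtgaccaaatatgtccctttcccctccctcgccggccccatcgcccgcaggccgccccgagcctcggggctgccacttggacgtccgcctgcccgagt
Eno2: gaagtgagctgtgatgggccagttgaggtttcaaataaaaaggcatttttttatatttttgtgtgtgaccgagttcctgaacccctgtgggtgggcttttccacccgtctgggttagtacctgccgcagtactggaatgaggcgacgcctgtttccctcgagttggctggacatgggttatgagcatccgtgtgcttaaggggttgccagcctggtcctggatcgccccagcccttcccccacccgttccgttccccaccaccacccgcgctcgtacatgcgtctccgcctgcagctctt
Taldo1: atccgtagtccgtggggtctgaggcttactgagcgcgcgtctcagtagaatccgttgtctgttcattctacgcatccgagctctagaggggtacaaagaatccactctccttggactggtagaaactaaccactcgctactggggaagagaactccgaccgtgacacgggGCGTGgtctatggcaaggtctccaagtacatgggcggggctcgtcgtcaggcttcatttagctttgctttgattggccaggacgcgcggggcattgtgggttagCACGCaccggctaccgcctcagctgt

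These windows lie at chr8:45999801-46000100 (minus strand) for Ankrd37, chr11:78322823-78323122 (plus) for Aldoc, chr2:11553880-11554179 (minus) for Pfkfb3, chr6:124769624-124769923 (minus) for Eno2 and chr7:141391910-141392209 (plus) for Taldo1. In Ankrd37, ACGTG starts at -241 and -6 from the start site, and an overlapping pair of GCGTG cores on opposite strands lies at -155 and -152. Aldoc has GCGTG at -50 and, past the start site, 1 core of each kind on the opposite strand, at 12 and 28. Pfkfb3 has ACGTG at -60, and its second listed promoter holds an E-box. Eno2, at -1.67, has no match in its window, and Taldo1, which was higher, has GCGTG at -80 and, on the opposite strand, at 25. Over all promoters of a gene, 33 of 36 members held ACGTG or GCGTG, against 46.7% of 27025 genes in the table. For ACGTG alone these were 23 of 36 against 21.8%, by role 14 of 23 glycolysis genes, 8 of 9 hypoxia genes and 1 of 4 pentose phosphate genes, and for CACGTG 6 of 36 against 8.09%. Member promoters are richer in G and C (median 61.0%, against 52.7% of all promoters), and each core holds CG. Members also have more windows a gene in which to match, with 53 promoters over 36 genes against 32851 over 27025. A match is letters only and shows no binding.

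The pentose phosphate members did not share a direction. Pgd, which makes NADPH in the oxidative arm, read 4680.4 in wild type and 4090.4 in the knockout (-0.09), and its 4 probe sets ran from -0.15 to 0.39. Tkt and Taldo1 encode transketolase and transaldolase, the enzymes that link the pathway back to glycolysis. Taldo1 read 4347.4 and 6732.2 (0.73) in its single probe set, the highest value of all members. The brightest probe set of Tkt, an _x_at one, read 13737.0 and 8543.5 (-0.58), but its other 1 above the floor read 3923.5 and 4374.9 (0.26), so Tkt has no settled direction. The median of the 3 measured genes was -0.09, and it was 0.02 with probe sets averaged and 0.26 without _x_at and _s_at probe sets. Besides Tkt, the probe sets of Aldoa, Mxi1, Pgd and Tpi1 lay on both sides of 0, and in the other 15 members with several measured probe sets all had the same direction.

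Genes of these pathways outside the 39 were read from lists written with earlier results of these data known. Other hypoxia-response genes were mostly lower. Of 35 measured, 26 were below 0, with a median of -0.36. The 2-fold threshold was passed by 6 of the 35 on the lower side, beside 4.45% of all genes, and by 2 on the higher side, beside 7.15%. The lower ones included the glycogen phosphorylase Pygl (-1.54), the transcription factor Bhlhe40 (3278.0 and 1133.0, -1.43) and Hilpda, a hypoxia-induced lipid droplet protein (3598.7 and 1260.3, -1.41). The higher ones were Hmox1, the haem oxygenase that is also abundant in macrophages (167.7 and 440.8), and Siah2 (236.1 and 461.7), named after its value was seen. Other genes of sugar uptake and glycolysis leaned the opposite way, with 10 of 14 above 0 and a median of 0.28. Bpgm, which makes 2,3-bisphosphoglycerate, was the only one past 2-fold (1.19), 1 of 14 beside 7.15% of all genes. The mitochondrial glycerophosphate dehydrogenase Gpd2 was at 0.94, while the D-lactate dehydrogenase Ldhd was at -0.89 and the galactose mutarotase Galm at -0.88. Other pentose phosphate genes split 4 and 4 around 0 (median 0.03), led by the ribose isomerase Rpia (2855.7 and 4695.4, 0.82).

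Pyruvate entry into mitochondria and the Krebs cycle stood on the other side of 0 from the glycolysis members. Of 27 measured genes 25 were above 0, with a median of 0.39, and none was at least 2-fold lower. The 2 at least 2-fold higher were a share near that of all genes (7.15%). Mpc1, a subunit of the mitochondrial pyruvate carrier, read 2650.2 in wild type and 5662.8 in the knockout (1.20). Pdk3, a pyruvate dehydrogenase kinase like Pdk1, read 569.4 and 1362.0 (1.36), opposite in direction to Pdk1. Another such kinase, Pdk2, was lower, like Pdk1. It was above the floor only in wild type (107.1 and 59.6), so it is not among the 27, and it was named after its value was seen. Pdhb, a subunit of pyruvate dehydrogenase itself, was at 0.76, and Sdhb, of succinate dehydrogenase, at 0.74. The median stayed between 0.29 and 0.39 under all settings run, and that of the other hypoxia genes between -0.46 and -0.32.

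**Figure D4:**
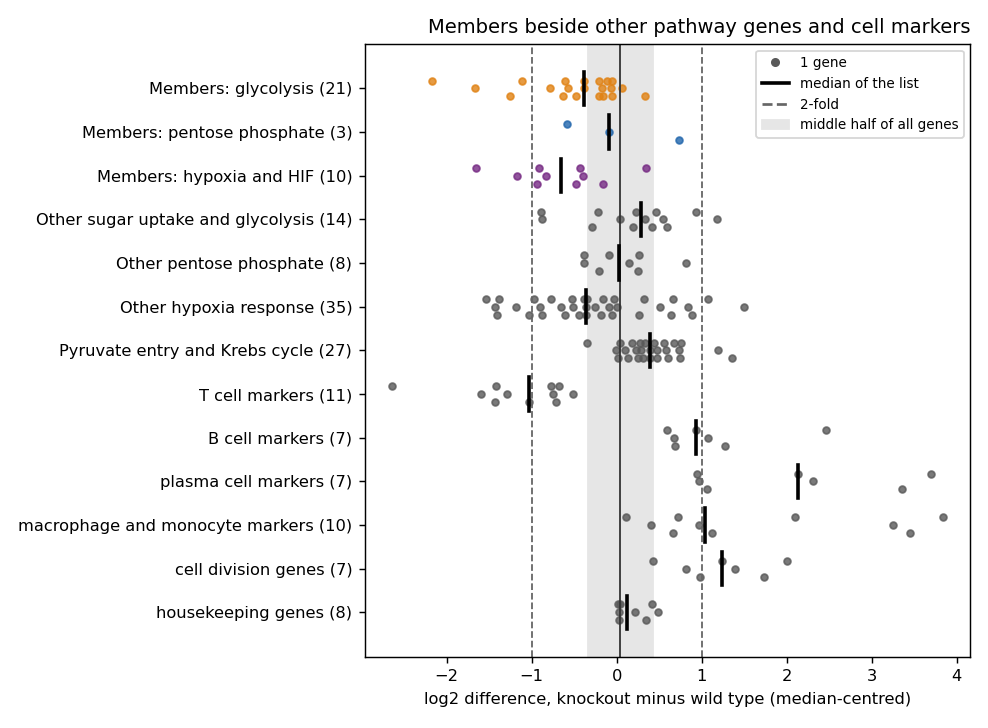
Centred log2 difference, knockout minus wild type, of each measured gene (points) in the member groups, in other genes of the same pathways and in marker lists, with each list's median (black bar), the number of genes in brackets, dashed lines at 2-fold and the middle 50% of all genes in grey. The medians of glycolysis and hypoxia members (-0.38 and -0.66) lie between that of T cell markers (-1.03) and that of all genes (0.04), and the median of Krebs cycle genes (0.39) lies to the right of it.

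Markers of several cell types differed between the arrays by more than most members did. All 11 measured T cell markers were lower in the knockout (median -1.03, summed signal 131220 in wild type and 64756.5 in the knockout). At least 2-fold lower were 6 of the 11, Cd4 (-1.59) and Trat1 (-2.64) among them, beside 4.45% of all genes. Cd3e was at -0.77. All 6 measured CD8 T cell and NK markers were lower as well, at a median of -1.42. Of 5 measured Th2 genes 3 were below 0 (median -0.21). In wild type and knockout these read 7423.4 and 5958.6 (Gata3), 1233.0 and 923.1 (Il4) and 105.1 and 75.1 (Ccr4). Higher were Ccr8 (157.6 and 216.2) and Il13 (69.6 and 240.6), whose wild-type signal was just above the floor of 69.2. Il5 was above the floor only in the knockout (26.1 and 68.3). Gata3 and Il5 were named after their values were seen. All 7 B cell markers above the floor on both arrays were higher (median 0.93, Cd79a at 0.93), as were all 7 such plasma cell markers (median 2.14) and all 10 such macrophage and monocyte markers (median 1.04, Lyz2 at 3.45). Summed over every named marker, those under a floor included, the signal in wild type and knockout was 16912.7 and 34266.9 for 8 B cell markers, 33846.1 and 71449.4 for 8 plasma cell markers and 8597.9 and 16958.2 for 12 macrophage and monocyte markers. Cell division genes were higher too, at a median of 1.24 with 7 of 7 above 0. Housekeeping genes were at 0.13. Hepatocyte genes, looked at because the sample descriptions name liver, were below the floor on both arrays in 7 of 7 cases, Alb reading 4.8 and 24.1. Of the members, 28 lay above the median of the T cell markers, and the 6 below it were those at least 2-fold lower. In RNA from a mixed culture, fewer cells of a type and less RNA per cell cannot be told apart, and the part of these markers in the members' differences was not tested. Ecm1 read 29114.7 in wild type and 19.3, below the floor, in the knockout.

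The members were bright genes for the most part, and brightness was therefore checked as well. Of the 34, 25 fell in the brightest of 3 equal bins of all measured genes by mean signal, where 3.73% of genes were at least 2-fold lower, 4 of the 25 members were, and the members' median was -0.38 against 0.09 for all genes there. In the middle bin 1 of 8 members was at least 2-fold lower beside 4.14% of genes, and the only member in the dimmest bin, Eno2, was lower beside 5.47%.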

How the data were processed

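The authors deposited a signal intensity on a linear scale for each of 45101 probe sets on 2 Affymetrix arrays. The sources used here do not give the software or settings. The trimmed mean of the central 96% of an array's probe sets was 500.004 on both, so the arrays had been scaled to a common mean, and a rise in abundant transcripts lowers the rest. The number of arrays limits the precision, and no detection calls were used. Genes were named through the platform annotation, from 34945 probe sets with 1 symbol outside the 64 control probe sets. Differences were computed in log2 and centred on the median of 20834 probe sets at or above the floor (the array's median) on both arrays. The brightest probe set stands for a gene. Probe sets of near-identical genes and pseudogenes, as in Pgk1, Tpi1, Ldha, Pgam1 or Aldoa, can share signal. Members, lists and tests were chosen with earlier results of these data known. Named were all members, up to 4 genes of each other list with the largest difference, defining cell markers and Ecm1. Protein sequences were not used here. The gene-level step was tested on simulated arrays with changes planted in brighter genes. That test did not cover signals near the floor, probes that match other transcripts or a changed mix of cells. Python 3.11.15, pandas 2.3.3 and statsmodels 0.14.6 were used. Alternatives were no centring, quantile normalization, loess (span 0.3), averaged probe sets, no _x_at or _s_at probe sets, control probe sets kept, a floor at the 70th percentile, no floor, and a threshold of 1.5-fold.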

Additional observations from a re-analysis of the deposited data

How the results depend on the processing

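No paired analysis was possible because there was 1 array for each genotype. The count of members at least 2-fold lower, 6 (beside 4.45% of all genes), ran from 5 to 8 over the 8 alternative settings. At least 1.5-fold lower were 12, beside 13.6% of all genes. None was at least 2-fold higher, beside 7.15% of all genes in the main setting. The exception was 1 with probe sets averaged (Slc16a1), and 1 was at least 1.5-fold higher, beside 18.3% of all genes. The glycolysis median of -0.38 was -0.49 without centring, -0.56 after quantile normalization, -0.52 after loess and -0.30 with the control probe sets of Gapdh kept. The hypoxia median of -0.66 was -0.49 with probe sets averaged. The pentose phosphate median of -0.09 was 0.26 without _x_at and _s_at probe sets and 0.02 with probe sets averaged. Of 269 member values under the alternatives, 265 moved by less than the SD between probe sets and 4 by more (Slc16a1, Vegfa and Tkt with probe sets averaged, and Tkt without _x_at and _s_at probe sets). The sign changed in 6 of them, in Pkm, Pgd and Tkt. Slc2a3 and Aldoa gave no value without _x_at and _s_at probe sets, and Eno2 none at the higher floor. Over all 10144 measured genes, 451 were at least 2-fold lower and 725 higher. At the higher floor these counts were 285 and 416 of 7360 genes, beside 5 and 0 of 33 members. Without a floor they were 2316 and 2818 of 18193 genes, beside 6 and 0 of 34 members. The share of all genes that was lower was thus larger without a floor, and the members' excess over it smaller. Low signal over the floor limits Eno2 most.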

Other observations

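Regulators of glucose use in T cells lay on both sides of 0. Of 19 measured, with a median of -0.03, 4 passed 2-fold on the higher side, beside 7.15% of all genes, and 1 on the lower, beside 4.45%. Txnip, an inhibitor of glucose uptake that is induced by glucose, read 9094.0 in wild type and 3472.3 in the knockout (-1.29). The amino acid transporter chains Slc7a5 (574.2 and 6942.9, 3.70) and Slc3a2 (1.53) were higher, as were Irf4 (2.14), which is also a plasma cell marker, and Sesn2 (1.11), named after its value was seen. Myc, which drives glycolysis after T cell activation, was at -0.32 (2031.0 and 1510.1) and Mtor at 0.20 (745.5 and 798.8), both named after their values were seen.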
